A study of Mus musculus with 24 samples.

Results

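Inhibitory interneurons are the neurons of the cortex that release GABA. The genes described here are 9 that are widely used to mark them: Gad1 and Gad2, which encode the enzymes that make GABA, Slc32a1, which encodes the transporter that loads it into vesicles, the peptide genes Sst and Npy, the calcium-binding protein gene Calb2, and the transcription factor genes Lhx6, Dlx1 and Dlx2. The members were chosen by symbol as 9 of the 55177 genes into which the deposited transcript tables could be summed. All 9 had counts in each of the 24 libraries and all 9 entered every test. The libraries came from primary neurons grown from the cortex of mouse embryos at day 16.5 (E16.5), and the labels define the groups by days in vitro (DIV), construct and state. At DIV7 there were 2 resting and 2 depolarized cultures of wild-type neurons, all 4 given 0.1% DMSO. At DIV18 the controls, 2 resting and 2 depolarized, had received a guide RNA without a target (non-targeting, NT). The other DIV18 cultures had a knockout (KO) of Smarcc2, a subunit of BAF chromatin remodelling complexes, and also carried an empty vector (KO+vector; 3 resting, 3 depolarized), wild-type Smarcc2 (KO+WT; 2 resting, 3 depolarized), Smarcc2 with the S586E substitution (KO+S586E; 3 resting) or Smarcc2 with the S586A substitution (KO+S586A; 2 depolarized). Every culture had been silenced overnight with tetrodotoxin (1 µM), a sodium channel blocker, and D-AP5 (100 µM), an NMDA receptor blocker, and the depolarized ones were then exposed to KCl (50 mM) for 30 min. The labels' protocols treat the cortex of each embryo as a biological replicate, and they do not say whether equal replicate numbers in different groups mark the same embryo. The DIV7 libraries were poly(A)-selected and the DIV18 libraries were made from rRNA-depleted total RNA, so age, RNA selection and the presence of a guide RNA cannot be told apart.

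Cortical interneurons are born in the ganglionic eminences below the cortex and migrate into it before birth, so a culture of embryonic cortex contains them beside the more numerous glutamatergic neurons. Dlx1 and Dlx2 are homeodomain factors that specify GABAergic fate in the progenitors, and Dlx factors activate Gad1 and Gad2. Lhx6 acts downstream in the lineage of the medial ganglionic eminence, which gives rise to the cells that make somatostatin (Sst). Neuropeptide Y (Npy) is made by several interneuron types, some of which also make somatostatin. Calb2 encodes calretinin, which marks a largely separate set of interneurons and also the Cajal-Retzius cells of the outermost cortical layer. Sst is a classical target of CREB, the factor activated by calcium and cyclic AMP.

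Each DIV7 library held 24536056 to 30135576 estimated counts, and each DIV18 library 14510199 to 24024959. Smarcc2 stood at 47.1 to 64.1 CPM (counts scaled to library size) in the 6 KO+vector libraries and at 237 to 283 CPM in the 4 NT libraries. The depolarization marker Fos lay between 2.75 and 8.34 CPM in all resting libraries and between 32.7 and 618 CPM in all KCl libraries. Marker sums of microglia (2.05 to 5.25 TPM over 5 genes) and of fibroblasts and vessels (0.671 to 2.30 TPM over 4 genes) were low in every library. The 10 glutamatergic markers summed to 515 to 812 TPM and the 9 interneuron genes to 74.9 to 538 TPM, where TPM is the deposited value per transcript length. The 10 markers of striatal projection neurons, which also make GABA, summed to 64.7 to 95.4 TPM at DIV7 and 41.1 to 74.0 TPM at DIV18, and their part in the values of Gad1, Gad2, Slc32a1, Dlx1 and Dlx2 was not tested. The third replicates of resting KO+vector and of depolarized KO+WT cultures stood apart in the interneuron genes, and results that rest on them are followed by values without them. RNA was taken from whole cultures, in which fewer interneurons and less RNA per interneuron cannot be told apart.

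Of the 9 genes, 6 lie on mouse chromosome 2 (GRCm38, GENCODE M21 gene limits): Gad2 at 22622205 to 22693874, Lhx6 at 36081953 to 36105408, Gad1 at 70553072 to 70602014, Dlx1 at 71528113 to 71533981, Dlx2 at 71543408 to 71546754 and Slc32a1 at 158610767 to 158615748. Dlx1 (plus strand) and Dlx2 (minus strand) end tail to tail, with 9426 bases between them. Sst lies on chromosome 16 at 23889573 to 23890958, Npy on chromosome 6 at 49822710 to 49829507 and Calb2 on chromosome 8 at 110137502 to 110168210. Antisense genes overlap Gad1 (Gad1os, 10286 bases), Dlx1 (Dlx1as, 5869 bases) and Slc32a1 (Gm14205, 911 bases), and whether the counting used strand is not given in the sources used here, so the counts of these 3 are uncertain to that extent.

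RefSeq promoter windows (GRCm38.p6, 250 bases before to 50 after a start) matched 8 of the 9 genes by symbol, Calb2 being the one not matched. Of the sequences, 4 are shown from 150 bases before the start to the base before it, on the strand of the gene, 5′ to 3′. They are Sst (chr16:23890845-23890994, minus strand), Gad2 (chr2:22622177-22622326, plus strand), Dlx2 (chr2:71546755-71546904, minus strand) and Npy (chr6:49822560-49822709, plus strand). Capitals mark the cyclic AMP response element TGACGTCA or its shorter core TGACG, which reads CGTCA on the other strand. Sst, Gad2 and Dlx2 are those of the 8 genes whose windows held either, and that of Npy held neither.
Sst: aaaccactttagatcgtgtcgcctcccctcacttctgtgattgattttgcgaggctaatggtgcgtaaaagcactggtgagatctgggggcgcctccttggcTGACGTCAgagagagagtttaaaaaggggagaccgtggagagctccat
Gad2: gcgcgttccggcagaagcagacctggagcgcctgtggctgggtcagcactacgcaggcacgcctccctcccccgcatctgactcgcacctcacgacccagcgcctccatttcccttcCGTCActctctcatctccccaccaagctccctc
Dlx2: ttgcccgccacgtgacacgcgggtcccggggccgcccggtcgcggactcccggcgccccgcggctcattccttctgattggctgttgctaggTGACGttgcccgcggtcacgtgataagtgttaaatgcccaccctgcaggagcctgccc
Npy: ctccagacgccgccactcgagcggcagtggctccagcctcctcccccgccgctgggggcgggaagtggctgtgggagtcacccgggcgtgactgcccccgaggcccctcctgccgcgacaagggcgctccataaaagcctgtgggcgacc
The full element was found, on both strands, in the window of Sst only among the 8 genes, with its first base at −48 from the start, and in 1.80% of all 32544 promoter windows. The shorter core, counted also inside the full element, was found in Sst, in Gad2 at −33 and in Dlx2 at −58, and in 20.9% of all windows. The homeodomain core TAATTA was in none of the windows of these genes and in 5.29% of all windows. A match of letters is a description of the window and says nothing about binding.

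At DIV7 the interneuron genes with the highest level per length were Sst, Gad1 and Calb2, and at DIV18 the highest was Npy. In the resting DIV7 cultures Sst stood at 95.05 and 136 TPM, Gad1 at 63.9 and 102 TPM and Calb2 at 60.1 and 66.0 TPM. Npy at 29.7 and 46.6 TPM, Slc32a1 at 24.5 and 38.6 TPM and Dlx1 at 22.2 and 35.2 TPM followed. Gad2 (14.2 and 21.2 TPM), Lhx6 (9.88 and 13.0 TPM) and Dlx2 (2.62 and 5.26 TPM) were lowest, each below the gene before it without overlap. Along this order Sst overlapped Gad1, Gad1 overlapped Calb2, Npy overlapped Slc32a1 and Slc32a1 overlapped Dlx1. In resting NT cultures at DIV18 the order was Npy (63.1 and 106 TPM), Sst (26.1 and 36.8 TPM), Gad1 (24.3 and 28.1 TPM), Slc32a1 (19.9 and 21.8 TPM), Gad2 (7.89 and 12.4 TPM), Calb2 (8.83 and 9.96 TPM), Dlx1 (2.83 and 3.79 TPM), Lhx6 (1.71 and 2.61 TPM) and Dlx2 (0.791 and 1.46 TPM). Of these neighbours Sst and Gad1 overlapped, as did Gad2 and Calb2. By group means the same order held in all 8 groups at DIV18, with Npy first and Dlx2 last.

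**Figure D1:**
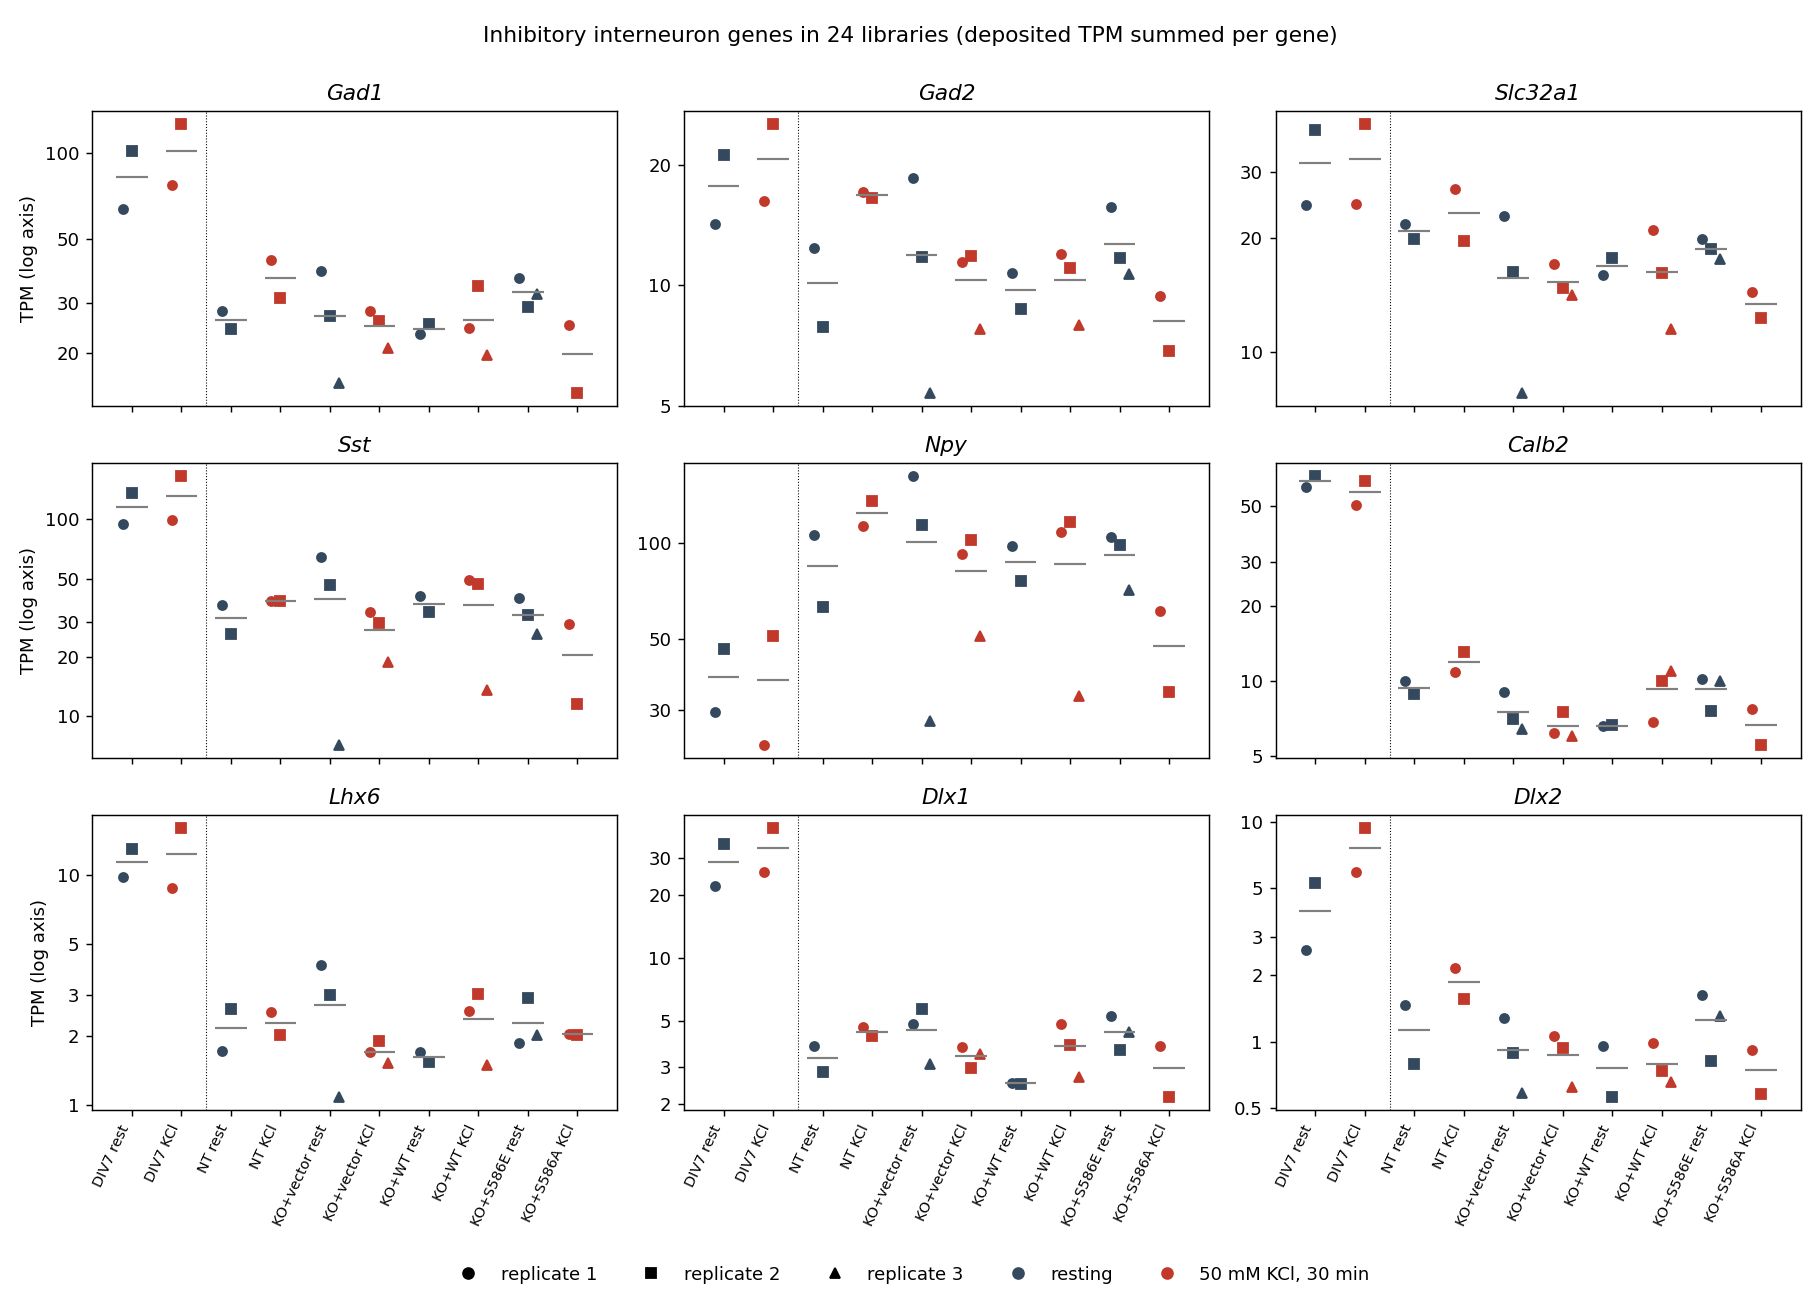
Deposited TPM of each of the 9 genes (log axis) in the 24 libraries by group, where each point is a library, its shape the replicate number, red depolarized and dark blue resting, and the grey bar is the group mean. Left of the dotted line are the 4 DIV7 libraries, which lie above all 20 DIV18 libraries for Gad1, Sst, Calb2, Lhx6, Dlx1 and Dlx2, and replicate 3 of resting KO+vector lies lowest of its group in 9 of 9 panels.

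Between resting DIV7 and resting NT cultures, 8 of the 9 genes were lower at DIV18 in deposited TPM without overlap and Npy alone was higher, but this scale was lower at DIV18 for most genes: 77.8% of 19250 genes with a mean of at least 1 TPM in either group were lower without overlap and 9.63% were higher. Transcripts annotated as protein-coding, from nuclear genes, took 65.5% to 67.6% of TPM in the poly(A) libraries and 18.6% to 26.6% in the total RNA libraries. Rescaled to those transcripts alone, Npy, Gad2 and Slc32a1 were higher at DIV18, Sst, Calb2, Lhx6 and Dlx1 were lower, and Gad1 and Dlx2 overlapped. Calb2 kept its direction on both scales: its mean in resting NT cultures was 0.149 of that at DIV7 in deposited TPM and 0.377 on the rescaled values. Npy also kept its direction, at 2.22 times the DIV7 mean in deposited TPM and 5.61 times on the rescaled values. Over all libraries, the 20 at DIV18 lay below the 4 at DIV7 in deposited TPM for 6 of the 9 genes (Gad1, Sst, Calb2, Lhx6, Dlx1 and Dlx2) and above them for 0, against 63.8% and 3.80% of 19226 genes. On the rescaled values only Npy (123 to 651 at DIV18, 35.0 to 75.8 at DIV7), Calb2 (24.4 to 53.4 and 75.9 to 101) and Dlx1 (1.38 to 6.30 and 8.05 to 14.9) did not overlap between the ages. The share of all genes without overlap was not computed on the rescaled values, so these counts have no background.

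Ratios between genes of a library do not depend on the total to which TPM is scaled, but they do depend on which transcripts are counted. Those given here use deposited TPM over all transcripts of a gene. Npy was below Sst in all 4 DIV7 libraries, at 0.237 to 0.342 of its TPM, and above it in all 20 DIV18 libraries, at 2.09 to 3.85 times its TPM. At DIV18 the highest and lowest of these ratios thus differed less than the levels of either gene, which are described further on. Gad1, whose product GAD67 makes most of the GABA of a neuron, stood at 4.49 to 5.01 times Gad2, whose product GAD65 is tied to synaptic vesicles, at DIV7 and at 1.89 to 3.11 times Gad2 at DIV18. Gad1 over the vesicular transporter gene Slc32a1 was 2.62 to 3.16 at DIV7 and 1.17 to 2.12 at DIV18. Neither ratio overlapped between the ages. Dlx1 over Dlx2 overlapped (4.37 to 8.49 and 2.14 to 6.35). This ratio changes with the transcripts counted. In resting DIV7 cultures the mean of Dlx1 was 28.7 in deposited TPM and 12.6 on the rescaled values, and that of Dlx2 was 3.94 and 5.70. The sum of the 9 genes over the sum of the 10 glutamatergic markers was 0.397 to 0.689 at DIV7 and 0.124 to 0.462 at DIV18, which also overlapped. Ratios between genes can still differ with RNA selection, which was not tested.

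**Figure D2:**
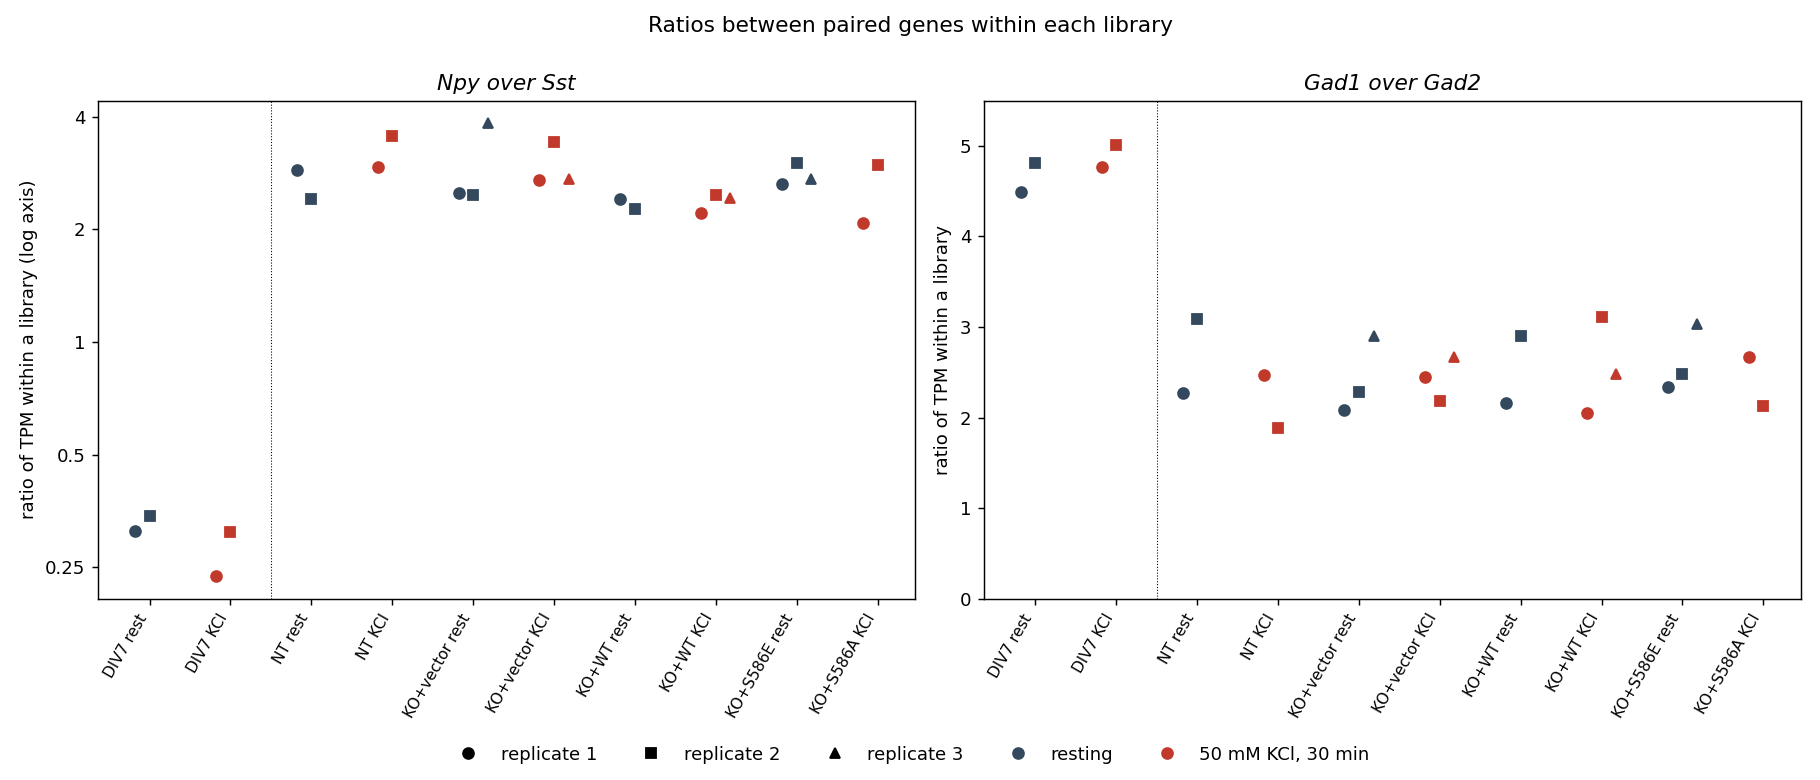
Ratio of TPM within each library for Npy over Sst (log axis, left) and Gad1 over Gad2 (linear axis, right) by group, with points and colours as in the plot of TPM by library. Npy over Sst is 0.237 to 0.342 in the 4 DIV7 libraries left of the dotted line and 2.09 to 3.85 in the 20 DIV18 libraries, and Gad1 over Gad2 is 4.49 to 5.01 and 1.89 to 3.11.

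For most genes these sums came mainly from transcripts annotated as protein-coding, which for some genes were several (5 for Gad1 and 7 for Lhx6). All of the TPM of Sst, Npy, Slc32a1 and Calb2 came from transcripts annotated as protein-coding, as did 85.6% to 99.8% of that of Gad1 at DIV18. Dlx1 differed: the 2 of its 6 transcripts annotated as retained introns held 69.4% to 81.2% of its TPM at DIV7 and 39.8% to 89.7% at DIV18. Its protein-coding forms held 18.8% to 30.6% and 10.0% to 57.6%. Values given for Dlx1 below are therefore mostly those of retained-intron forms, on a locus that Dlx1as overlaps, and its direction turned in 6 comparisons when protein-coding transcripts alone were counted.

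Within resting KO+vector cultures the libraries differed in Gad1, Gad2, Slc32a1, Sst, Npy, Lhx6 and Dlx2 by more than any pair of the 8 group means did at DIV18. In resting KO+vector cultures Sst stood at 43.1, 31.3 and 5.03 CPM in replicates 1, 2 and 3, the last resting on 79 counts. Npy stood at 77.2, 55.4 and 13.9 CPM in the same libraries. Slc32a1 stood at 73.2, 52.6 and 26.2 CPM, Gad2 at 120, 79.1 and 38.5 CPM, and Gad1 at 139, 94.4 and 62.1 CPM. Replicate 1 was the highest of the 3 for 9 of 9 genes and replicate 3 the lowest for 9 of 9, where over all 20940 genes tested these libraries were highest for 34.9% and lowest for 35.7%. Replicate 1 exceeded replicate 3 by 1.34 to 8.56 times (median 2.67), least for Calb2 and most for Sst.

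The same held in other groups. Replicate 3 was lowest for 8 of 9 genes in depolarized KO+vector cultures and for 8 of 9 in depolarized KO+WT cultures, against 36.9% and 35.6% of all genes. In that KO+WT library Sst stood at 8.82 CPM, against 29.9 and 31.6 CPM in the other two, and Npy at 15.3 CPM, against 47.4 and 56.0 CPM. Calb2 did the opposite there, at 16.2 CPM in replicate 3, against 9.55 and 15.5 CPM. Replicate 2 was lowest for 9 of 9 genes in KO+S586A and in resting KO+WT cultures, against 49.8% and 48.8% of all genes. At DIV7, replicate 1 was below replicate 2 for 9 of 9 genes at rest and again for 9 of 9 after KCl (50.3% and 49.5% of all genes), with replicate 2 at 1.10 to 2.06 times replicate 1 at rest and 1.24 to 2.18 times after KCl.

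As a description over the 20 DIV18 libraries, with each gene's log2 CPM set against its group mean, Pearson's correlation between 2 members was 0.586 to 0.974 (median 0.863) in the 28 pairs without Calb2 and 0.0845 to 0.591 (median 0.353) in the 8 pairs with it. These points share their libraries and the normalisation of each. Over all 20 libraries the ratio of the highest to the lowest CPM was 2.24 for Gad1, 2.34 for Dlx1, 2.38 for Calb2, 2.67 for Lhx6, 2.82 for Dlx2, 3.02 for Slc32a1, 3.12 for Gad2, 5.56 for Npy and 8.56 for Sst. Between the means of the 8 groups the spread was narrower, from 1.29 times for Lhx6 to 2.21 times for Npy. The highest group mean was that of depolarized NT cultures for 7 of the 9 genes, the exceptions being Sst (resting KO+WT) and Lhx6 (resting KO+S586E).

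**Figure D3:**
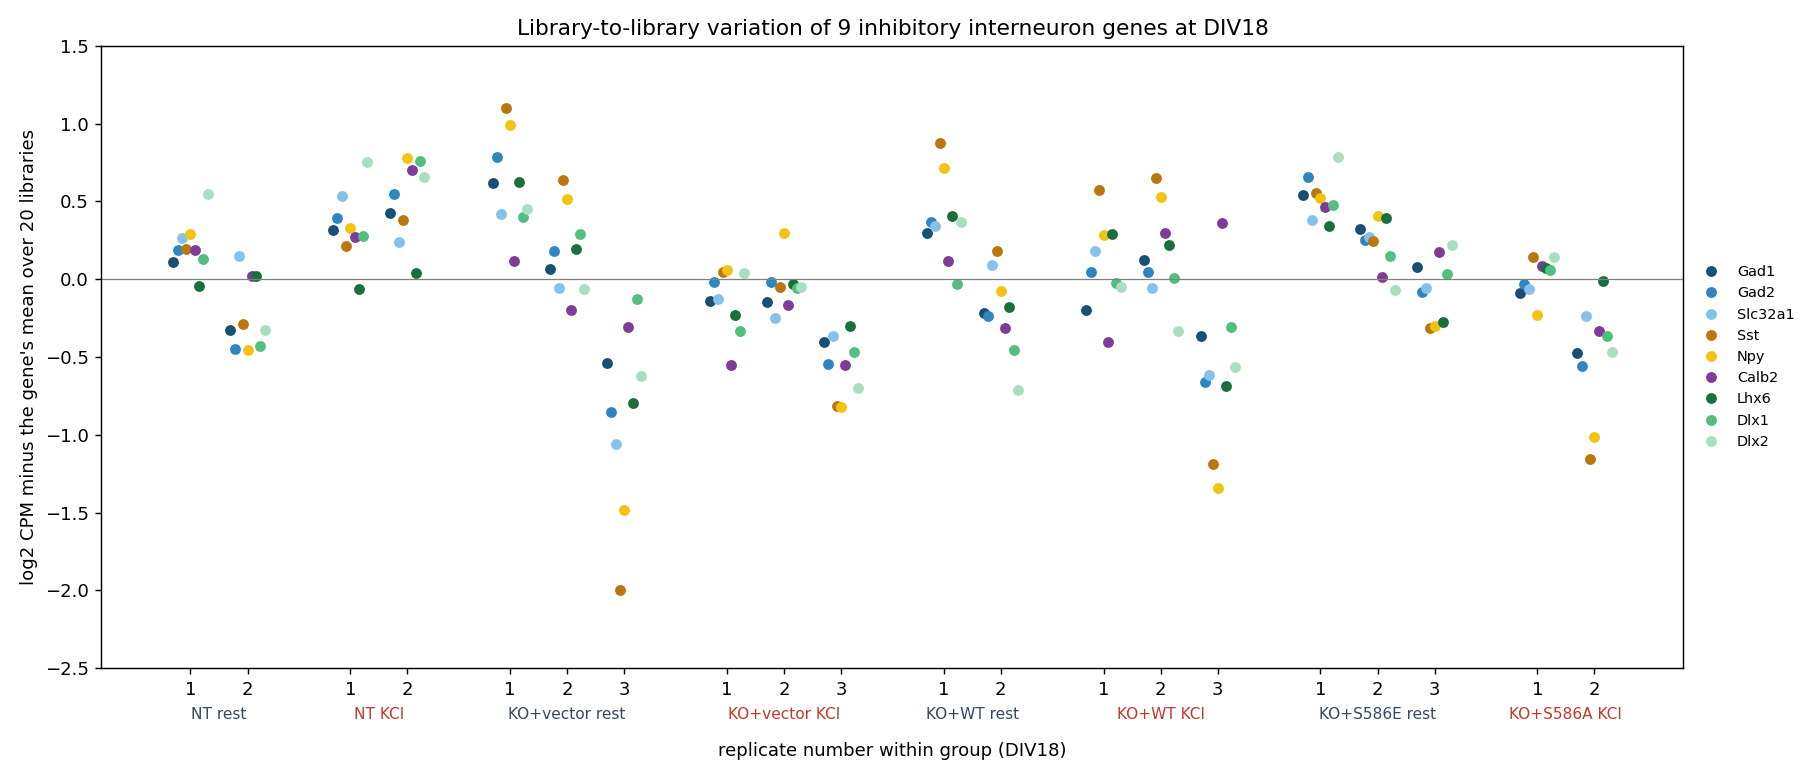
Log2 CPM of each of the 9 genes minus that gene's mean over the 20 DIV18 libraries, where each column is a library (replicate number within its group), each colour a gene and red group names are depolarized. The genes of a library mostly lie on the same side of 0, replicate 3 of resting KO+vector is lowest of its group for 9 of 9, and Sst and Npy have the widest spread, 8.56 and 5.56 times between the highest and the lowest library.

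Genes outside the list followed the same pattern. Among 10624 other genes with a mean of at least 5 CPM, those with log2 CPM most like the mean of Gad1, Gad2 and Slc32a1 over the 20 libraries included Rbms3 (Pearson's r = 0.957), Maf (0.935), Erbb4 (0.922) and Islr2 (0.916). Maf encodes a transcription factor of interneurons from the medial ganglionic eminence and Erbb4 the neuregulin receptor of interneurons, and both were on the lists of GABAergic genes. Nearest to Sst were Ptprm (0.924), Hapln1 (0.887) and Pea15a (0.871), and nearest to Npy were Hapln1 (0.915), Maf (0.906) and Celf4 (0.901). Nearest to Lhx6 were Ogfr (0.891), Il34 (0.887) and Lamp5 (0.870), to Dlx1 Dgkg (0.896), Kcnip1 (0.886) and Cacng5 (0.881), and to Dlx2 Pcp4l1 (0.873), Rbms3 (0.861) and Adarb2 (0.861). Calb2 had Crym (0.858), P2rx6 (0.842) and Sorcs1 (0.841) nearest to it. These values are the highest of many and describe these libraries only.

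At DIV7, 0 of the 9 genes passed the threshold after 30 min of depolarization (edgeR quasi-likelihood test, adjusted p under 0.05), where 17.0% of 19822 genes passed. Of the 9, 1 had an unadjusted p under 0.05, as 31.6% of all genes did, and DESeq2 called 0. Dlx2 stood at 3.19 and 6.57 CPM at rest and at 6.96 and 10.9 CPM after KCl, so the groups did not overlap. Its log2 fold change was 0.88 ± 0.34 (SE), with an unadjusted edgeR p of 0.0348 and an adjusted p of 0.124. The other 8 ranged from −0.11 (Calb2) to 0.24 (Gad2), and the median of the 9 was 0.21, beside −0.0014 over all genes tested. Leaving out each library in turn moved that median from −0.19 to 0.48 and replicate 2 was above replicate 1 for 9 of 9 genes in both states. All 7 early-response genes rose in the same libraries, with a median log2 fold change of 5.40. Of 35 tested genes on the other GABAergic lists, 1 passed: Satb1, a chromatin organiser of maturing interneurons that glutamatergic neurons also express, rose by 0.31 ± 0.053 (SE) on the log2 scale (edgeR adjusted p = 0.0101), from 105 ± 5.64 to 131 ± 1.49 CPM (SD, n = 2 each).

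In NT cultures at DIV18 the response also called 0 of the 9 genes, with 0.00955% of 20940 genes called, and DESeq2 called 0. Of the 9, 1 had an unadjusted p under 0.05, as did 4.33% of all genes. The values of 8 of 9 lay above 0, with a median log2 fold change of 0.46 beside −0.0049 over all genes, and with each library left out in turn 8 or 9 lay above 0. The gene with the low p was Dlx1, which stood at 8.96 and 6.10 CPM at rest and at 9.95 and 13.9 CPM after KCl, with a log2 fold change of 0.66 ± 0.24 (edgeR, unadjusted p = 0.0141, adjusted p = 1). Gad1 stood at 97.4 and 72.1 CPM at rest and at 113 and 121 CPM after KCl, without overlap (log2 fold change 0.46 ± 0.26, adjusted p = 1). The 95% intervals were wide, from −0.092 to 1.02 for Gad1 and from −1.01 to 1.66 for Sst. The 7 early-response genes summed to 62.6 and 60.1 TPM in resting NT and to 376 and 154 TPM in depolarized NT. After KCl their sum was 219 to 342 TPM in KO+vector, 152 to 538 TPM in KO+WT and 272 to 295 TPM in KO+S586A. At DIV7 it went from 50.8 and 48.0 TPM to 2331 and 2492 TPM, on a scale that differs between the ages. The part of these differences in the responses of the 9 genes was not tested.

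In KO+vector cultures the response called 0 of 9 (0.0716% of all genes; DESeq2 0), and all 9 values lay below 0, with a median of −0.35 beside −0.0049 over all genes. Without replicate 3 of the resting group, which was low for the whole list, the median was −0.61, and without replicate 3 of the KCl group it was −0.23. Without replicate 1 of the resting group, the highest for the list, 5 of 9 lay above 0 and the median was 0.024. Dlx1 alone had an unadjusted p under 0.05, as 10.3% of all genes did (log2 fold change −0.48 ± 0.20, edgeR unadjusted p = 0.0290, adjusted p = 0.421), at 10.8, 10.0 and 7.51 CPM at rest and 6.50, 7.89 and 5.93 CPM after KCl. In KO+WT cultures 0 of 9 were called (0.0430% of all genes; DESeq2 0) and 0 had an unadjusted p under 0.05, as 4.97% of all genes did. There 2 of 9 lay above 0, with a median of −0.23, and without replicate 3 of the KCl group 5 of 9 lay above 0, with a median of 0.036. Without replicate 1 of the resting group 8 of 9 lay above 0 (median 0.10), and without replicate 2 of it 0 did (median −0.47).

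The difference between the response in KO+vector and that in NT was tested directly. It uses the same depolarized NT libraries as the NT response and is not independent of that response. It called 0 of 9 genes, and 0% of all 20940, by edgeR, and DESeq2 called 0 of the 9. All 9 values were below 0, with a median of −0.81 beside 0.0045 over all genes, and 3 had an unadjusted p under 0.05, as did 8.81% of all genes. With each of the 10 libraries left out in turn the median stayed between −1.21 and −0.48, and up to 2 of the 9 lay above 0. The lowest value was that of Dlx1, at −1.14 ± 0.32 (edgeR unadjusted p = 0.00199, adjusted p = 0.472), followed among those 3 by Gad1 (−0.81 ± 0.34, adjusted p = 0.519) and Calb2 (−0.69 ± 0.32, adjusted p = 0.559). The other GABAergic lists stood the same way, with 35 of 37 tested genes below 0 and 0 called. The responses of KO+WT and KO+vector differed for 0 of 9 (0% of all genes; DESeq2 0), and those of DIV7 and NT cultures for 0 of 9 (1.82% of 22459 genes; DESeq2 0). Without replicate 3 of resting KO+vector, 9 of 9 lay above 0 in the response of KO+WT against that of KO+vector (median 0.47), against 7 of 9 (median 0.15) with all libraries, and without replicate 3 of depolarized KO+WT it was 8 of 9 (median 0.36). With each of the 11 libraries left out in turn, 2 to 9 of the 9 lay above 0. In the KO+WT against KO+vector and the DIV7 against NT comparison of responses, 0 of 9 had an unadjusted p under 0.05, where 3.67% and 11.2% of all genes did.

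**Figure D4:**
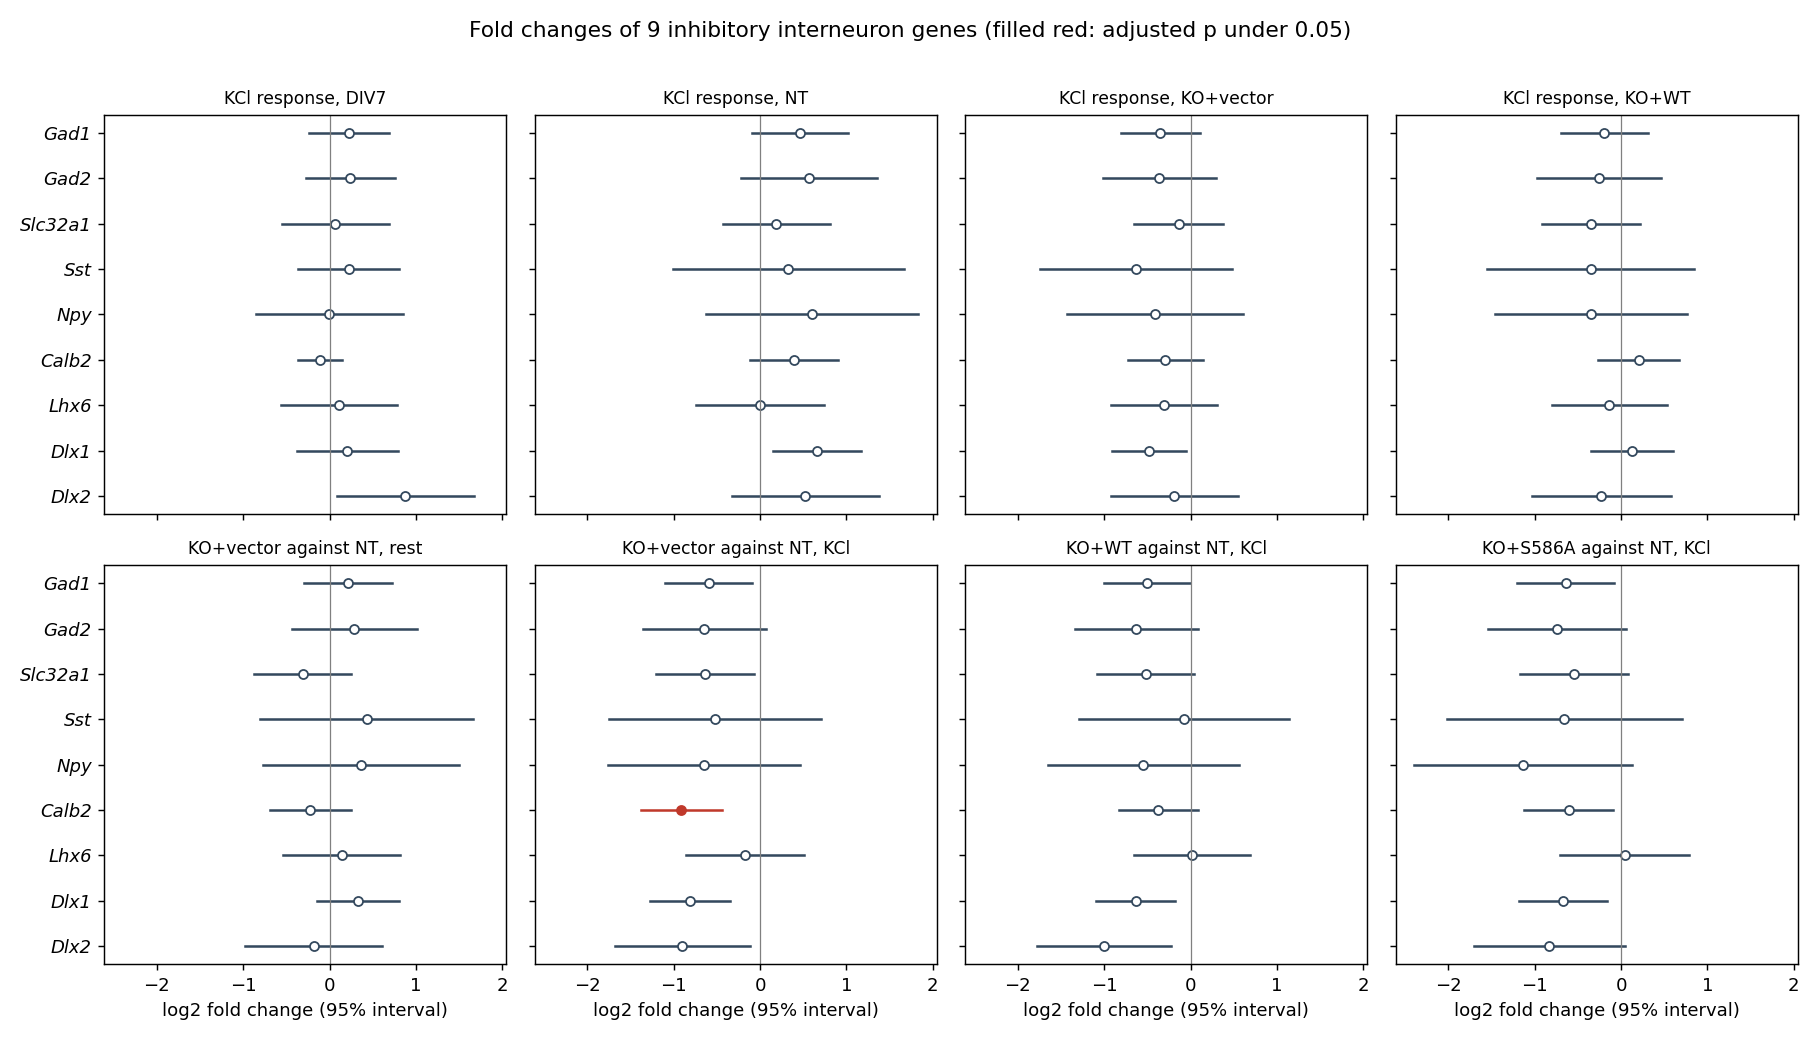
Log2 fold change (points) with its 95% interval (lines) from edgeR for the 9 genes in 8 comparisons, 4 of KCl against rest (upper row) and 4 of Smarcc2 constructs against NT (lower row), where filled red means an adjusted p under 0.05. Calb2 in depolarized KO+vector against NT cultures, at −0.91, is the only filled point.

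Resting KO+vector and NT cultures differed past the threshold in 0 of the 9 genes, where 5.90% of 20940 genes passed. At an unadjusted p under 0.05 the count was also 0, where 20.4% of all genes passed, and DESeq2 called 0. Of the 9, 6 lay above 0, and the values ran from −0.31 ± 0.27 (Slc32a1) to 0.43 ± 0.59 (Sst), with a median of 0.22 beside 0.019 over all genes. Without replicate 3 of KO+vector the median was 0.46 and 7 of 9 lay above 0. Without replicate 1 of KO+vector the median was −0.14 and 1 of 9 lay above 0. Of the 37 other GABAergic genes tested, 2 passed. Calb1, the gene of the calcium-binding protein calbindin, which layer neurons also make, stood at 5.82 and 6.01 CPM in NT and at 16.2, 10.5 and 7.83 CPM in KO+vector, without overlap, and rose by 0.96 ± 0.22 on the log2 scale (edgeR adjusted p = 0.0167). Ackr3, a chemokine receptor that migrating interneurons use, rose by 0.72 ± 0.21 (adjusted p = 0.0477), from 3.66 ± 0.77 (SD, n = 2) to 6.05 ± 0.44 CPM (n = 3).

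After KCl, 1 of the 9 genes was called in KO+vector against NT, where 2.67% of all genes passed, and 1.95% passed as lower. Calb2 stood at 15.2 and 20.5 CPM in NT and at 8.60, 11.3 and 8.60 CPM in KO+vector, so the groups did not overlap. It fell by 0.91 on the log2 scale (SE 0.22, edgeR adjusted p = 0.0374). All 9 values were below 0, with a median of −0.64 beside 0.018 over all genes. They stayed below 0 with each of the 5 libraries left out in turn, with medians from −0.73 to −0.52. Of the 9, 5 had an unadjusted p under 0.05, where 16.6% of all genes did. After Calb2 came Dlx1 (−0.81 ± 0.22, adjusted p = 0.0581), Gad1 (−0.60 ± 0.24, adjusted p = 0.208), Dlx2 (−0.90 ± 0.37, adjusted p = 0.229) and Slc32a1 (−0.64 ± 0.27, adjusted p = 0.236). Dlx1 stood at 9.95 and 13.9 CPM in NT and at 6.50, 7.89 and 5.93 CPM in KO+vector. Gad1 stood at 113 and 121 CPM and at 82.0, 81.6 and 68.3 CPM. Dlx2 stood at 4.45 and 4.16 CPM and at 2.71, 2.55 and 1.63 CPM, and Slc32a1 at 79.1 and 64.6 CPM and at 50.0, 46.1 and 42.4 CPM. None of these 4, which were listed for their low p, overlapped between the groups. The share of all genes without overlap in this comparison was not computed. DESeq2 called 2 of the 9, Calb2 (adjusted p = 0.00482) and Dlx1 (adjusted p = 0.0170). The fit on the depolarized NT and KO+vector libraries alone called 5, adding Gad1, Gad2 and Slc32a1 to those 2, and offsets for transcript length left 0.

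With each library left out in turn, the call of Calb2 was kept in 1 case and lost in 4. It was kept without replicate 1 of depolarized NT (log2 fold change −1.11, adjusted p = 0.0496) and lost without replicate 2 of that group (−0.68, adjusted p = 0.442). Without replicate 1, 2 or 3 of depolarized KO+vector it was lost (adjusted p = 0.130, 0.0542 and 0.123) at fold changes of −0.84, −1.05 and −0.85. With the third replicates of the KO+vector and KO+WT groups left out, an alternative chosen after seeing the data, it was −0.84 with an adjusted p of 0.0890. Of the 37 other GABAergic genes tested, Vip and Calb1 passed. Vip, the peptide gene of another interneuron class, fell by 0.71 (SE 0.17, adjusted p = 0.0320), from 12.1 and 15.0 CPM to 8.24, 7.11 and 9.52 CPM. Calb1 rose by 0.92 ± 0.23 (adjusted p = 0.0374), from 6.21 and 5.60 CPM to 10.8, 12.0 and 10.9 CPM. Markers of other cells moved in the same comparison. All 7 astrocyte markers were below 0 (median −1.22; Aqp4, Slc1a2 and S100b passed), and their sum was 178 to 264 TPM in depolarized NT and 107 to 121 TPM in KO+vector. Of the oligodendrocyte lineage markers, 3 of 7 were called lower. The astrocyte sum was lower at rest as well, at 210 to 244 TPM in NT and 91.8 to 181 TPM in KO+vector. In that resting comparison 6 of the 9 interneuron genes lay above 0. The part of these shifts in the interneuron values was not tested.

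No comparison of an addback group with KO+vector called any of the 9 genes by edgeR. KO+WT against KO+vector called 0 of 9 at rest (0.0143% of all genes; DESeq2 0) and 0 of 9 after KCl (0.00955%; DESeq2 0). At an unadjusted p under 0.05 the counts were 0 of 9 at rest and 1 of 9 after KCl, where 11.1% and 3.99% of all genes passed. The 1 was Calb2, which stood at 9.55, 15.5 and 16.2 CPM in KO+WT and at 8.60, 11.3 and 8.60 CPM in KO+vector, overlapping groups, with a log2 difference of 0.53 ± 0.20 (edgeR unadjusted p = 0.0171, adjusted p = 0.999). KO+S586E against KO+vector at rest called 0 of 9 (0.0191% of all genes) and KO+S586A against KO+vector after KCl called 0 of 9 (0.00955%), as did DESeq2 in both. At an unadjusted p under 0.05 the count was 0 in both, where 7.45% and 13.0% of all genes passed. The medians of the 9 depended on the libraries that stood apart. Without replicate 3 of resting KO+vector, that of KO+WT against KO+vector at rest went from 0.016 to −0.31 and that of KO+S586E against KO+vector from 0.12 to −0.11.

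The substituted proteins were compared with wild-type Smarcc2 in 1 state each. Smarcc2 counts were not equal between these groups. They differed from KO+WT by 0.64 ± 0.14 in KO+S586E (edgeR adjusted p = 0.114) and by 0.54 ± 0.14 in KO+S586A (adjusted p = 0.338), on the log2 scale. KO+S586E against KO+WT at rest called 0 of 9 genes (0% of all genes) and 0 at an unadjusted p under 0.05 (12.9% of all genes), with DESeq2 also at 0. The values ran from −0.37 ± 0.57 (Sst) to 0.46 ± 0.23 (Dlx1). KO+S586A against KO+WT after KCl called 0 of 9 (0%) and again 0 at an unadjusted p under 0.05 (8.71% of all genes), with DESeq2 at 0. There the lowest values were those of the peptide genes: Npy at −0.59 ± 0.55 and Sst at −0.58 ± 0.60. Without replicate 3 of depolarized KO+WT they were −0.97 and −0.96, and the median of the 9 went from −0.11 to −0.22. With each library left out in turn, 0 to 6 of the 9 lay above 0. Sst stood at 22.2 and 9.03 CPM in KO+S586A and at 29.9, 31.6 and 8.82 CPM in KO+WT, so that the spread within each group exceeded the difference between them.

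The addback groups were also compared with NT cultures. Smarcc2 itself stood above its NT level in all of them. On the log2 scale the difference at rest was 1.65 in KO+WT and 2.29 in KO+S586E. In depolarized cultures it was 1.71 in KO+WT and 2.25 in KO+S586A. The part of these levels in the values of the 9 genes was not tested. After KCl, KO+WT called 0 of 9 (0.201% of all genes; DESeq2 0), with 8 of 9 below 0, a median of −0.52 and 3 at an unadjusted p under 0.05 (11.0% of all genes), which were Gad1 (−0.51 ± 0.24), Dlx1 (−0.64 ± 0.22) and Dlx2 (−1.003 ± 0.37). KO+S586A called 0 of 9 (0.430%; DESeq2 0), with 8 of 9 below 0, a median of −0.66 and 3 at an unadjusted p under 0.05 (11.8% of all genes), which were Gad1 (−0.64 ± 0.27), Calb2 (−0.61 ± 0.24) and Dlx1 (−0.67 ± 0.24). Lhx6 was the one gene above 0 in both, at 0.017 ± 0.32 and 0.042 ± 0.35. Without replicate 3 of depolarized KO+WT, 7 of 9 were below 0 in KO+WT against NT and the median was −0.40. The 7 astrocyte markers were all below 0 in both as well (medians −0.77 and −0.65), with 0 and 1 called. Their sum was 114 to 166 TPM in KO+WT and 99.1 to 138.5 TPM in KO+S586A, below the 178 to 264 TPM of NT, and their part in the result was not tested. These comparisons share the 2 depolarized NT libraries, so their values are not independent of each other. The same libraries enter the NT response, its difference from the KO+vector response and KO+vector against NT after KCl, which are not independent of them either. At rest, KO+WT called 0 of 9 (0.105%; DESeq2 0), with 6 of 9 above 0 and a median of 0.15. With each library left out in turn, the lowest count above 0 was 1 of 9 (median −0.14), without replicate 1 of resting KO+WT, and the highest was 9 of 9 (median 0.39), without replicate 2. KO+S586E called 0 of 9 (2.78%; DESeq2 0), with 9 of 9 above 0, from 0.0011 (Slc32a1) to 0.42 ± 0.24 (Gad1), and a median of 0.23. In both, 0 of 9 had an unadjusted p under 0.05, where 7.88% and 17.8% of all genes did. The astrocyte sum at rest was 118 to 133 TPM in KO+WT and 161 to 186 TPM in KO+S586E, below the 210 to 244 TPM of NT. Without replicate 2 of resting NT, 6 of 9 lay above 0 in KO+S586E against NT and the median was 0.044. Of the other GABAergic genes, Ackr3 was the 1 called in KO+S586E against NT (0.83 ± 0.21, edgeR adjusted p = 0.0389).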

How the data were processed

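RNA was sequenced from 24 cultures, 1 library each. Per the submitters' processing notes, kallisto, cutadapt and FastQC were used, with no versions, and the genome build, annotation and strand setting are not given in the sources used here. Per the file headers, the authors deposited, for each transcript, estimated counts, TPM and the effective length. Transcripts were matched by identifier to GENCODE M21 (141429 of 142552; the others held at most 0.467% of a library) and both values were summed per gene. TPM describes levels and has no test.

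Summed estimated counts were rounded to whole numbers and tested with edgeR 4.0.16 in R 4.3.3 (TMM scaling, filterByExpr, quasi-likelihood F test, two-sided, Benjamini-Hochberg over all genes). The 4 DIV7 libraries and the 20 DIV18 libraries were fitted apart, and all 24 together only to compare the DIV7 and NT responses. The count of genes passing is at an adjusted p under 0.05. SE is the log2 fold change divided by the square root of F, and CPM uses TMM library sizes. P-values measure only the spread between these samples. On simulated counts with 200 changed genes, changes of 1 on the log2 scale were recovered for 79.1% in the DIV7 response (19822 genes; 13.0% of calls false) and 63.4% in the NT response (20940 genes; 4.35% false).

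Equal replicate numbers deviated together, with each correlation over 0.1, in KO+WT against KO+vector after KCl (0.106, 0.114 and 0.236). The same held in KO+S586E against KO+vector at rest (0.293, 0.103 and 0.291). It also held in KO+WT against NT, at rest (0.104 for both numbers) and after KCl (0.111 and 0.120). The labels do not pair these samples, and all main tests were unpaired. A replicate block was fitted only as an alternative. Alternatives were DESeq2 1.42.0, its size factors, no low-count filter, the replicate block, length offsets, protein-coding transcripts only, the compared groups only and each library left out. All 9 genes are named in each comparison, with other GABAergic genes that passed. The 9 genes and all lists were chosen with earlier results of these data known.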

Additional observations from a re-analysis of the deposited data

How the results depend on the processing

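Without the low-count filter, the members called were 3 in the DIV7 and 3 in the NT response, 4 in the KO+vector response and 5 in its difference from the NT response. They were 7 in KO+vector and 4 in KO+WT against NT after KCl, 1 in KO+WT and 2 in KO+S586E against NT at rest, and, for KO+S586A, 2 against KO+WT, 1 against KO+vector and 5 against NT. KO+vector against NT after KCl called 2 with DESeq2, 0 with length offsets, 5 with only the compared groups and 0 without the third replicates, the last chosen after seeing the data. With the replicate block, the DIV7 response called 5 (Gad1, Gad2, Sst, Dlx1 and Dlx2) and KO+vector against NT after KCl called 2 (adding Dlx1). In the latter Lhx6 turned to 0.067, and Sst and Npy went from −0.52 and −0.65 to −0.12 and −0.28. The block changed no count elsewhere, and in both of these the samples share only a number, with correlations of 0.020 and of 0.024 and 0.061. With each library left out, these comparisons called 0 to 2 and 0 to 1. No share of all genes was computed on TPM over protein-coding transcripts. There 3 members were higher and 4 lower in resting NT than in resting DIV7 cultures. The cause was not tested.

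Over all genes, calls in the DIV7 response were 3371, against 2217 with DESeq2 and 5857 with the replicate block; in KO+vector against NT they were 560 after KCl, against 943 with DESeq2, 278 with length offsets and 1437 without the filter, and 1236 at rest, against 225 with only the compared groups, 681 with length offsets and 2016 without the filter. Without replicate 2 of the NT group they were 37 after KCl and 100 at rest, and 3 in KO+S586E against NT, which had 583. In 18 of the 19 comparisons the count over all genes was higher with DESeq2 than with edgeR. With protein-coding transcripts only, Dlx1 turned to −0.19 in the DIV7 response, −0.86 in KO+vector and −0.85 in KO+S586E against NT at rest, 0.037 in KO+WT against KO+vector at rest, −0.026 in KO+S586E and 0.25 in KO+S586A against KO+WT. With length offsets, Lhx6 turned to 0.25 in the KO+WT response and −0.50 in KO+WT against KO+vector at rest. Without the third replicates, KO+S586E against KO+vector gave Gad1 −0.041, Gad2 −0.21 and Lhx6 −0.24, and Slc32a1 was 0.23 in the response of KO+WT against that of KO+vector. None of these turned values had been called. With each library left out in turn, members took both signs in 8 of 9 cases in the DIV7, 8 in the KO+WT, 5 in the KO+vector and 1 in the NT response, and in 2 and 7 for the responses of KO+vector against NT and KO+WT against KO+vector. For KO+vector against NT it was 6 at rest and 0 after KCl, for KO+WT against NT 8 and 2, for KO+WT against KO+vector 7 and 5. For KO+S586E it was 6 against KO+WT, 6 against KO+vector and 4 against NT, for KO+S586A 6, 5 and 1, and 5 for the response at DIV7 against that of NT. The members listed here turned by more than 1 SE. For the DIV7 response the ranges were Slc32a1 −0.32 to 0.43, Dlx1 −0.19 to 0.53, Npy −0.67 to 0.46, Calb2 −0.28 to 0.038, Gad1 −0.072 to 0.47, Gad2 −0.12 to 0.53, Sst −0.19 to 0.55, Lhx6 −0.37 to 0.48. For the KO+vector response the ranges were Gad2 −0.69 to 0.069, Slc32a1 −0.45 to 0.22, Npy −0.85 to 0.076, Lhx6 −0.61 to 0.024. For the KO+WT response the ranges were Gad1 −0.44 to 0.082, Lhx6 −0.41 to 0.18, Dlx2 −0.67 to 0.41. For KO+vector against NT at rest the ranges were Dlx2 −0.55 to 0.31, Gad1 −0.11 to 0.46, Gad2 −0.14 to 0.63, Lhx6 −0.20 to 0.43. For KO+WT against KO+vector at rest the ranges were Gad1 −0.34 to 0.27, Gad2 −0.42 to 0.34, Calb2 −0.19 to 0.24, Dlx2 −0.70 to 0.38. For KO+WT against NT at rest the ranges were Dlx1 −0.35 to 0.20, Dlx2 −0.89 to 0.25, Gad1 −0.13 to 0.39. For KO+S586E against KO+WT the ranges were Dlx2 −0.020 to 1.06. For KO+S586E against KO+vector the ranges were Sst −0.68 to 0.33, Npy −0.52 to 0.41, Gad1 −0.044 to 0.53, Gad2 −0.21 to 0.55, Lhx6 −0.24 to 0.39. For the response of KO+WT against that of KO+vector the ranges were Gad1 −0.18 to 0.43, Dlx2 −0.49 to 0.60. The lowest libraries of Dlx2, Lhx6, Sst and Dlx1 held 25, 56, 79 and 91 counts. For Sst that library was replicate 3 of resting KO+vector. The median of Sst over the DIV18 libraries was 22.9 CPM, beside 13.1 CPM for Calb2.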

Other observations

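Of 38 other genes of GABA handling, interneuron transcription factors and interneuron subtypes, 3 were higher in all 20 DIV18 libraries than in all 4 DIV7 libraries in deposited TPM, 18 were lower and 17 overlapped, where 3.80% of all genes were higher and 63.8% were lower. The 3 higher genes came from the list of interneuron subtype and signalling genes, on which others were lower or overlapped. Calb1 (18.0 to 26.2 TPM at DIV7, 1.13 to 5.35 TPM at DIV18) and Htr3a (1.30 to 2.26 and 0.235 to 0.996 TPM) were lower. Lamp5 and Cort overlapped. Pvalb, the gene of the calcium-binding protein parvalbumin, stood at 0.00 to 0.168 TPM at DIV7 and at 1.88 to 7.24 TPM at DIV18. Vip, a peptide gene, stood at 0.486 to 1.43 TPM and at 4.33 to 8.84 TPM. Crhbp, whose product binds corticotropin-releasing hormone, stood at 1.61 to 1.92 TPM and at 6.81 to 38.6 TPM. Of the 18 lower genes, 4 more are given as examples. The chemokine receptor gene Cxcr4 stood at 5.67 to 9.09 TPM at DIV7 and at 0.111 to 1.05 TPM at DIV18, and Ackr3 at 4.09 to 8.05 TPM and at 0.930 to 2.30 TPM. Reln, the gene of the secreted protein reelin, which Cajal-Retzius cells also make, stood at 29.4 to 54.5 TPM and at 0.473 to 3.87 TPM. Calb2, which those cells share, was lower as well. Chodl, a marker of long-range somatostatin neurons, stood at 3.51 to 3.82 TPM and at 0.0773 to 0.650 TPM. The genes named here were chosen after their values were seen, and age and RNA selection cannot be told apart.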
